A study of Rattus norvegicus with 32 samples.

Results

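Across all arrays of the *Csf1r*-deficient rat series, 6 transcription factors of the myeloid lineage were followed, namely *Spi1*, which encodes PU.1, *Irf8*, *Cebpa*, *Cebpb*, *Stat5a* and *Tfec*. They were chosen by name, as the probe sets whose only gene symbol is 1 of these 6, and each was represented by 1 probe set among 14557 genes named in this way on the platform (Affymetrix Rat Gene 2.1 ST). CSF1R is the receptor for CSF1 and IL-34, and the series compared rats without it to their littermates. RNA came from hippocampus, striatum, olfactory bulbs, pituitary gland and spleen of wild type (WT, Csf1r +/+), heterozygous (HET, Csf1r +/-) and homozygous mutant (KO, Csf1r -/-) rats, with 2 arrays per tissue and genotype, and from WT bone marrow-derived macrophages (BMDM) on 2 arrays, 32 in all. The tissue donors were adult female rats of DA/SD strain, 2 per genotype per the study's methods, that were not perfused, so arrays of different tissues share rats. The mutant allele, in which a reporter and selection cassette interrupts the first coding exon of *Csf1r*, goes back to a single embryonic stem cell clone. BMDM were grown in recombinant human CSF1 from bone marrow of adult male DA rats, so sex and strain cannot be told apart from cell type in any comparison with spleen.

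PU.1 is an ETS-family protein that the development of macrophages requires. It binds purine-rich sites, among them those at the *Csf1r* gene, and recruits partners that bind poorly alone. IRF8 is such a partner, and in mouse it is needed for the maturation of microglia and for the balance between monocytes and granulocytes. C/EBPα and C/EBPβ are basic leucine zipper proteins, the former acting early in granulocyte and monocyte commitment and the latter in mature and activated macrophages. STAT5A carries signals of GM-CSF and other cytokines to the nucleus and is used in many cell types, and TFEC is a macrophage-enriched relative of MITF whose promoter was found in mouse to be driven by PU.1.

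The labels were checked first against genes that define the tissues. The targeted gene, *Csf1r*, ranged on the 24 brain and pituitary arrays from 7.63 to 9.12 (log2 intensity) in WT, 7.59 to 8.62 in HET and 2.73 to 3.96 in KO. All 8 KO arrays therefore lay below 4.32, the log2 of the intensity of 20 that served as the limit for a measured level. The arrays labelled olfactory bulbs carried a summed intensity of 19806 to 23066 over 7 anterior pituitary genes, against 161 to 1089 on those labelled pituitary gland, and for 4 genes of olfactory bulb interneurons the order was turned, with 295 to 384 against 3908 to 4322. Both sets go against their labels and are named below as OB-labelled and pituitary-labelled arrays. Hippocampus WT 2 and KO 2 had summed intensities of 9341 and 9326 for 7 choroid plexus genes, against 215 to 617 on the other 4, and striatum WT 2, HET 2 and KO 1 had 416 to 1415 for 3 cortical genes, against 46.7 to 105. In 1 alternative these 5 arrays were left out together with pituitary-labelled HET 1, HET 2 and KO 2, picked from earlier work on these data for olfactory mucosa genes. On the mucosa list used here (4 genes measured) those 3, at 490 to 1174, overlapped the other pituitary-labelled arrays, at 232 to 1006. Among the spleens, HET 2 and KO 2 had summed intensities of 4691 and 4853 for 7 thymus genes, against 66.7 to 85.6 on the other 4, and HET 1 carried pancreatic enzyme genes (1649 against 44.1 to 102). For 2 spleen stroma genes the sums were 352 and 477 in WT, 16.5 and 395 in HET, and 19.3 and 299 in KO. For 3 erythroid genes they were 388 and 499, 38.1 and 481, and 53.8 and 257. Each list was thus low on 1 HET and 1 KO array, where the stroma sums lay below those of BMDM (27.1 and 34.3). How much spleen HET 2 and KO 2 hold was not tested. The KO differences in spleen below may therefore average a spleen with an array of another tissue. For *Csf1r* the HET arrays stood at 0.594 to 0.713 of the WT mean intensity in hippocampus, striatum and the pituitary-labelled set, but on the OB-labelled arrays, at 7.79 and 7.59 against 7.63 and 7.74 in WT, at 1.00 of it. There the targeted gene does not separate HET from WT. The numbers 1 and 2 are not tied to a rat in the labels, so p-values measure the spread between these arrays, and having 2 arrays per group limits how precise they are.

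The position of each gene is given on the rat assembly GRCr8. *Spi1* lies at chr3:97529509-97548204, *Cebpb* on the same chromosome at chr3:176817005-176818436, *Irf8* at chr19:65699284-65721066, *Cebpa* at chr1:96896584-96899256, *Stat5a* at chr10:86285859-86310187 and *Tfec* at chr4:46072093-46146200. A window of 250 bases upstream of the annotated start was available for 5 of the 6 genes. It was searched on both strands for sites of the families these factors belong to. These were GAGGAA, the core read by PU.1, the ETS-IRF composite element, where PU.1 and an IRF bind side by side, the core of the interferon-stimulated response element, TTGCNNAA, a C/EBP site, TTCNNNGAA, the STAT site, and the E-box forms CACGTG and CATGTG used by the MITF family. The composite element can overlap both the PU.1 core and the interferon element, and TTCNNNGAA and CACGTG read the same on both strands. The 3 windows that held a match are printed from RefSeq, 5′ to 3′ on the strand of the gene, with the matched letters in capitals.
Irf8, plus strand, chr19:65699034-65699283: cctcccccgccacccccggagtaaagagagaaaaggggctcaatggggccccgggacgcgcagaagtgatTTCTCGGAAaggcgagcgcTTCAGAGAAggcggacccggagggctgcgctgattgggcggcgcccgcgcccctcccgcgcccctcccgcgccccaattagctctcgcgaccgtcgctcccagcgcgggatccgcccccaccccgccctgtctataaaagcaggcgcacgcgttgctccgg
Tfec, minus strand, chr4:46146201-46146450: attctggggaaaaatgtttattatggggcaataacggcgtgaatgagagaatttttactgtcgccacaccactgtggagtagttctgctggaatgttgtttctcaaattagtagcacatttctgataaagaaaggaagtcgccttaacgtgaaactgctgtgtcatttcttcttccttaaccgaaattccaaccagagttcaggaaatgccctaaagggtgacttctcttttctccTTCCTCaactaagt
Stat5a, plus strand, chr10:86285609-86285858: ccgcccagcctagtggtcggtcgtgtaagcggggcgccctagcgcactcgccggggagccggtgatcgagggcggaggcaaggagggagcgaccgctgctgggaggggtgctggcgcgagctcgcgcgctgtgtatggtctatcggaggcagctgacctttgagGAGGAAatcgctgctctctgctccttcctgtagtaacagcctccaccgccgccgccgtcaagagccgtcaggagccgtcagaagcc

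Upstream of *Irf8* the STAT site occurred 2 times, at bases -180 to -172 and -161 to -153 from the start, and no other window of the 5 held it. It was found in 7.67% of 33469 windows of the same length. GAGGAA occurred once upstream of *Tfec*, at -14 to -9 and on the opposite strand, and once upstream of *Stat5a*, at -86 to -81, while 23.3% of all windows held it. The windows of *Cebpa* and *Cebpb* held none of the 7 motifs. A match is only a run of letters, and a common one for GAGGAA. The *Tfec* window stood apart in composition, with 40.8% G and C, against 67.2 to 80.0% in the other 4 and a median of 51.2% over all windows.

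Among WT brain and pituitary samples *Spi1* differed between regions. Its mean log2 intensity was 4.74 ± 0.27 (SD, n = 2) in hippocampus, 5.19 ± 0.19 in striatum, 5.52 ± 0.32 on the OB-labelled arrays and 5.87 ± 0.08 on the pituitary-labelled arrays. The moderated F test of limma over the 4 regions passed (adjusted p = 0.00999), as it did for 72.6% of the 10663 genes tested. In that order, neighbours did not differ beyond their spread (adjusted p of 0.393, 0.323 and 0.312 from limma), whereas hippocampus was lower than the OB-labelled arrays by 0.78 (adjusted p = 0.0235) and than the pituitary-labelled arrays by 1.13 (adjusted p = 0.00477). *Stat5a* was the other member with a regional difference (adjusted p = 8.81e-07, limma F test). It stood at 4.09 ± 0.00 (SD, n = 2) in hippocampus, 4.93 ± 0.14 in striatum, 5.12 ± 0.21 on the pituitary-labelled arrays and 6.29 ± 0.20 on the OB-labelled arrays, which carry anterior pituitary genes. Only striatum and the pituitary-labelled arrays did not differ (adjusted p = 0.478). For *Irf8*, *Cebpa* and *Cebpb* the F test did not pass (adjusted p of 0.0710, 0.0534 and 0.246). As single pairs, *Irf8* was higher on the pituitary-labelled arrays than in hippocampus by 0.96 (adjusted p = 0.0396), and *Cebpa* was lower on the OB-labelled arrays than in hippocampus (-0.78, adjusted p = 0.0167). In hippocampus WT 2 carries choroid plexus genes and in striatum WT 2 carries cortical genes. Their part in these regional differences was not tested. *Tfec* lay between 2.29 and 3.93 on the 8 WT arrays and never reached an intensity of 20 on any brain or pituitary array, so it was not tested there.

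**Figure D1:**
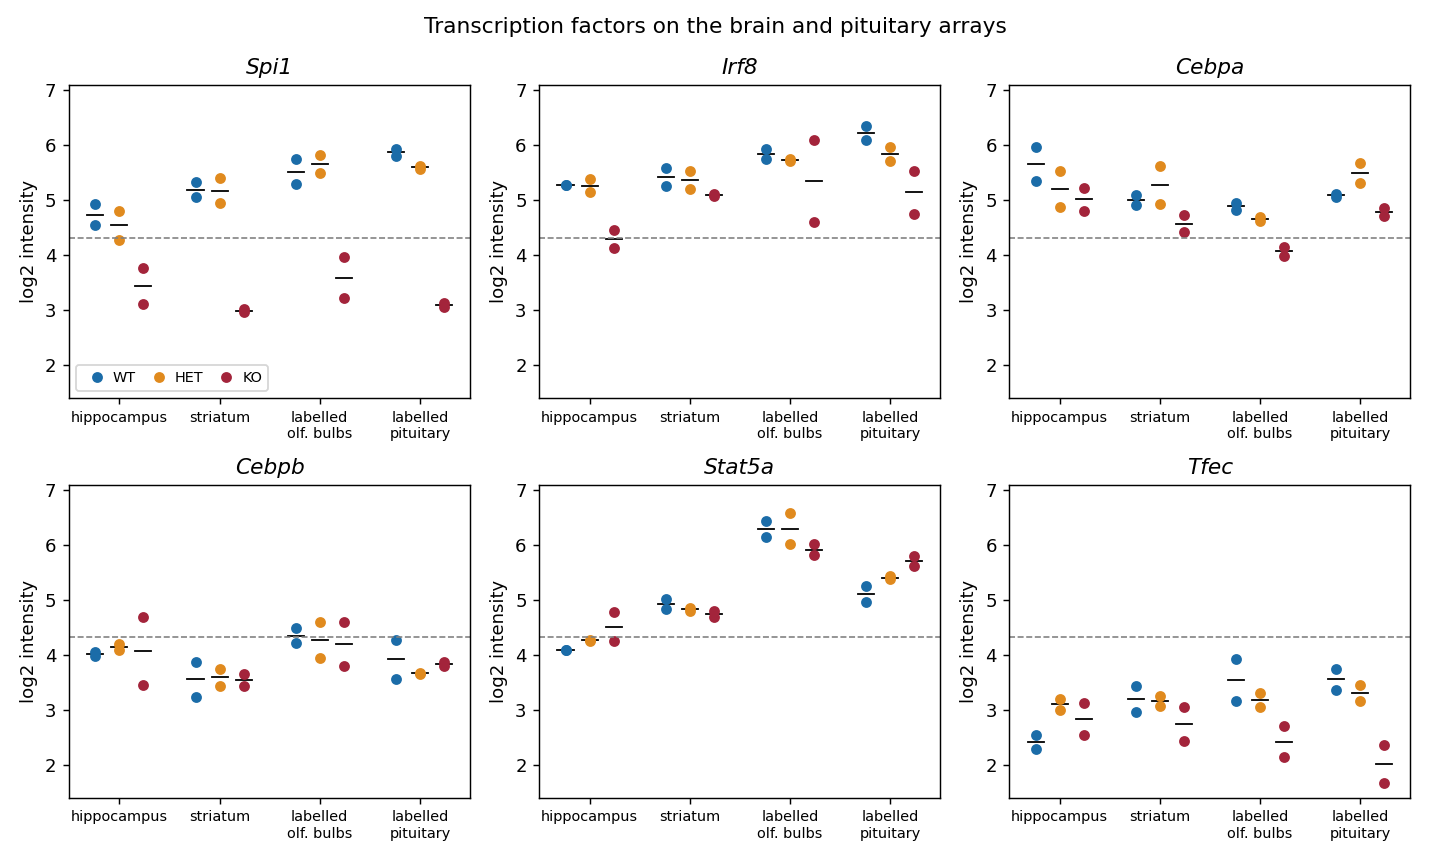
Log2 intensity of the 6 transcription factors on each of the 24 brain and pituitary arrays, by labelled tissue and genotype (points, 2 arrays per group, horizontal bars their mean, dashed line an intensity of 20). *Spi1* on the 8 KO arrays lies between 2.97 and 3.97, below every WT and HET array, whereas the KO arrays of *Cebpb* overlap the WT arrays in each of the 4 regions, and the HET arrays in all but the pituitary-labelled set.

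*Spi1* fell in the KO brain and pituitary samples, and did so in each of the 4 labelled regions. In hippocampus its log2 intensity was 4.93 and 4.55 in WT, 4.81 and 4.27 in HET, and 3.77 and 3.11 in KO. In striatum it was 5.33 and 5.06 in WT, 5.40 and 4.96 in HET, and 3.02 and 2.97 in KO. No KO array overlapped a WT or HET array in either region, and every KO value lay below the limit of an intensity of 20. On the OB-labelled arrays *Spi1* was at 5.75 and 5.29 in WT, 5.83 and 5.50 in HET, and 3.97 and 3.21 in KO. On the pituitary-labelled arrays it was at 5.81 and 5.93 in WT, 5.63 and 5.57 in HET, and 3.13 and 3.06 in KO. Again the KO arrays stood apart from both other genotypes.

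As a mean over the 4 regions, *Spi1* was lower in KO than in WT by 2.05 on the log2 scale (log2 difference -2.05, SE 0.174, n = 2 means per genotype, adjusted p = 0.00139 from limma). It was the 1 member called of 5 tested, where 1.08% of all genes were called lower. In hippocampus the difference was -1.30 (SE 0.276, adjusted p = 0.0417), with 0.6% of genes called lower. In striatum it was -2.20 (adjusted p = 0.000295, background 0.628%), on the OB-labelled arrays -1.92 (adjusted p = 0.00125, background 1.05%) and on the pituitary-labelled arrays -2.77 (adjusted p = 1.37e-05, background 0.928%). The 4 regions share 1 fit and 1 SE, and the fit treats its 24 arrays as independent although they share rats. The mean over the 4 regions, called the brain mean below, includes the pituitary-labelled set and the OB-labelled set, which carries anterior pituitary genes. It joins arrays by number, which the labels do not tie to a rat. Each mean may therefore mix rats, and its SE may be too small. No other member was called in any region, although 4 of the 5 in hippocampus, 1 in striatum, 2 on the OB-labelled arrays and 3 on the pituitary-labelled arrays had an unadjusted p under 0.05, *Spi1* included. By the methods' t-test no member passed in the brain after adjustment, and over all genes 1 did in the brain mean and 0 in each region.

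Because KO values lay below the limit, the fold is also given as a bound, with each KO array set to an intensity of 20. *Spi1* was then at least 1.34-fold lower in hippocampus, 1.83-fold in striatum, 2.29-fold on the OB-labelled arrays and 2.93-fold on the pituitary-labelled arrays. With every KO value set to 20, the order of these bounds is fixed by the WT levels and says nothing about the KO effect. A test of whether the KO effect on *Spi1* differed between regions did not pass (adjusted p = 0.409, limma F test on 3 degrees of freedom), against 0.15% of genes that did. The hippocampus call was lost without WT 1, WT 2, HET 1, HET 2 or KO 2 (differences -0.97 to -1.63 over the numbers left out in turn from every region, adjusted p up to 0.635), and the call on the OB-labelled arrays without WT 1 (-1.69, adjusted p = 0.0756). Without the 8 arrays set aside for other tissue, hippocampus (-1.16, adjusted p = 0.532) and striatum (-2.36, adjusted p = 0.0817) were not called.

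Genes of microglia moved with *Spi1*, and their part in its fall was not tested. Of 11 genes on a microglia list 10 were measured, and all 10 fell in the KO brain mean, where 1.08% of all genes did. The median was -3.69 on the log2 scale as measured and -2.47 with KO values below an intensity of 20 set to 20, since 8 to 10 of the 10 were below it on each KO array. *C1qc*, a complement chain made by microglia, differed by -2.55 as measured (SE 0.146, adjusted p = 0.000190) and was below it on all 8 KO arrays. The summed intensity of the 10 genes was 801 to 2251 on WT and HET arrays and 92.7 to 159 on KO arrays. The 3 measured genes of border macrophages were called lower in the brain mean as well, with a median of -1.04 as measured and -0.36 with KO values of at least 20, and 1 of them, *F13a1*, was below the limit on 6 of 8 WT arrays. Their summed intensity fell on the pituitary-labelled arrays (29.9 to 37.1 in KO, 152 to 199 in WT). It did not on the OB-labelled arrays (132 to 161 against 107 to 146), where their mean log2 intensity was 4.40 to 4.76 against 4.79 to 4.83. In whole tissue, fewer cells of a type and less RNA per cell cannot be told apart.

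*Irf8*, the partner that PU.1 recruits, was called in no region and not in the mean. In hippocampus it had 5.27 and 5.28 in WT, 5.39 and 5.14 in HET, and 4.14 and 4.46 in KO (log2 difference -0.98, SE 0.343, adjusted p = 0.436). On the pituitary-labelled arrays it had 6.36 and 6.11 in WT, 5.72 and 5.97 in HET, and 5.53 and 4.76 in KO (-1.09, adjusted p = 0.319). In striatum KO was at 5.08 and 5.12 against 5.58 and 5.26 in WT, a difference of -0.32 (adjusted p = 0.963). On the OB-labelled arrays the 2 KO values lay far apart. There WT was at 5.75 and 5.93, KO 2 at 4.61, and KO 1 at 6.10, above every other array of that label. On the same KO 1 array 6 T cell genes had a mean log2 intensity of 5.15, against 3.78 to 4.44 on the other OB-labelled arrays, though their summed intensity, 391, lay within the range of the others (230 to 606). The 3 measured erythroid genes summed to 150 on it, against 44.6 to 66.2, and the B cell and neutrophil sums did not stand apart. Their part in the *Irf8* value was not tested. With 1 KO number left out of every region, *Irf8* passed in hippocampus without KO 2 (-1.14, adjusted p = 0.0359), and without KO 1 on the OB-labelled arrays (-1.23, adjusted p = 0.0202) and the pituitary-labelled arrays (-1.48, adjusted p = 0.00276). The brain mean difference of -0.72 (SE 0.156, adjusted p = 0.125) passed without KO 1 (-0.96, adjusted p = 0.0210), without the OB-labelled arrays (-0.80, adjusted p = 0.0266) and with a trend and robust variance (adjusted p = 0.0351). On 7 of 8 KO arrays *Irf8* was still at an intensity of 20 or more, where *Spi1* was on 0 of 8.

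*Cebpa* had a lower mean on KO than on WT arrays in each region and passed no test. Its log2 intensity was 5.97 and 5.36 in WT hippocampus against 5.22 and 4.81 in KO, and HET, at 5.54 and 4.87, overlapped KO. In striatum it was 5.10 and 4.91 against 4.42 and 4.73, and on the OB-labelled arrays 4.83 and 4.95 against 3.99 and 4.15. The last, with both KO arrays below the limit, was its widest gap as measured (-0.82, SE 0.259, adjusted p = 0.134), and on the pituitary-labelled arrays it was narrowest (-0.30, adjusted p = 1.00). The brain mean differed by -0.55 (SE 0.144, unadjusted p = 0.00629, adjusted p = 0.228 from limma).

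*Cebpb* was close to the limit throughout the brain, and its KO arrays overlapped the WT arrays in each region. It ranged from 3.24 to 4.49 on WT, 3.44 to 4.60 on HET and 3.44 to 4.68 on KO arrays, and reached an intensity of 20 on 1, 1 and 2 of 8. The brain mean difference was -0.05 (SE 0.188, adjusted p = 0.971). Its sign turned with the arrays left out, from -0.34 to 0.24.

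*Stat5a* was well measured in most regions and did not differ between genotypes in the mean (0.12, SE 0.116, adjusted p = 0.859). The direction varied by region. On the pituitary-labelled arrays it was at 4.97 and 5.26 in WT, 5.43 and 5.38 in HET, and 5.80 and 5.63 in KO, a difference of 0.60 (SE 0.197, adjusted p = 0.400). On the OB-labelled arrays it was at 6.16 and 6.43 in WT, 6.59 and 6.01 in HET, and 5.81 and 6.02 in KO, a difference of -0.38 (adjusted p = 0.415). KO was higher than WT on average in the former and lower in the latter. Neither difference was called, and on the OB-labelled arrays HET and KO overlapped. The test of a difference in KO effect between regions gave an unadjusted p of 0.00815 and an adjusted p of 0.332.

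*Tfec* lay below the limit on all 24 arrays. In KO it ranged from 1.67 to 3.12 with a median of 2.49, in WT from 2.29 to 3.93 with a median of 3.27, and in HET from 3.01 to 3.44. On the pituitary-labelled arrays KO 1 and KO 2 were at 1.67 and 2.36, against 3.37 and 3.74 in WT. With no intensity filter this difference of -1.54 was called (adjusted p = 0.0240 from limma), the only one of *Tfec* in the brain. In hippocampus the WT arrays were the lower ones, at 2.29 and 2.54 against 2.55 and 3.12.

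**Figure D2:**
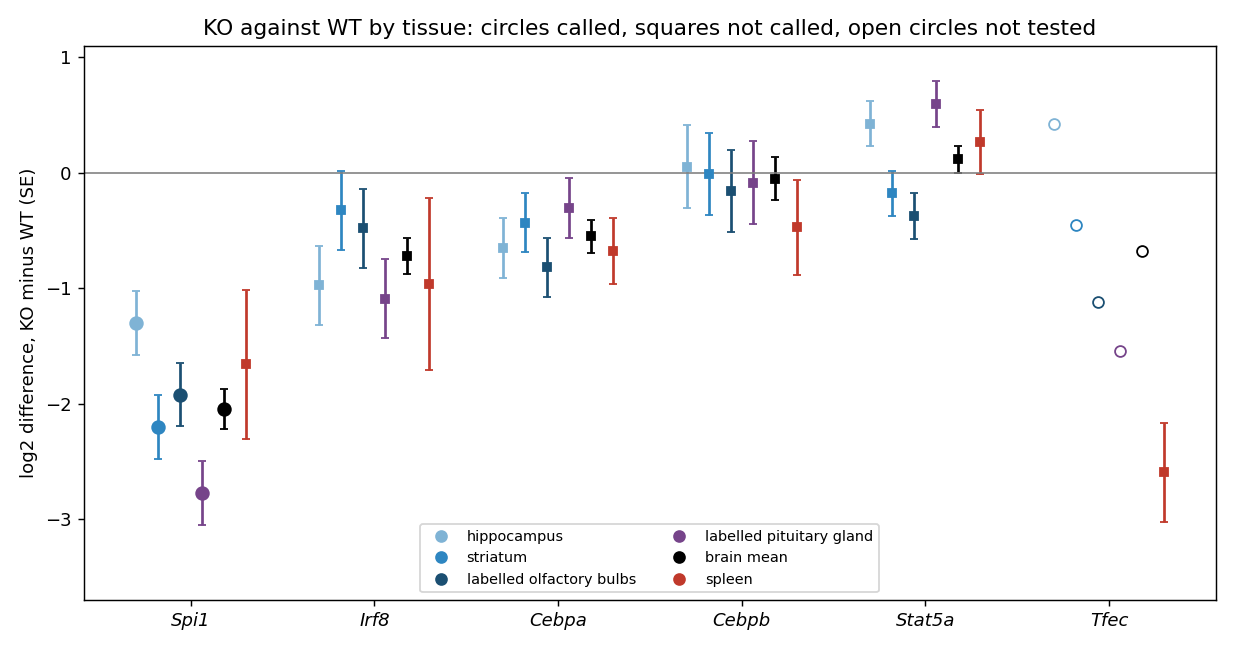
Log2 difference of KO minus WT for each transcription factor by tissue (points, bars are the SE of the limma fit, circles called at an adjusted p under 0.05, squares not called, open circles not tested because no array reached an intensity of 20). *Spi1* differs by -1.30 to -2.77 in the 4 regions and is the only gene with calls, and *Tfec* has its largest difference, -2.60, in spleen.

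Set beside each other on the same arrays, the measured KO change of *Spi1* was lower than that of every other member in each of the 4 regions, but all 8 of its KO values lay below the limit. With these set to an intensity of 20, its fall in hippocampus was at least 0.42 on the log2 scale, less than the measured -0.98 of *Irf8* and -0.65 of *Cebpa*, so their order there is not settled. In striatum, on the OB-labelled and on the pituitary-labelled arrays the bounds of 0.87, 1.19 and 1.55 exceeded the measured falls of both, although *Cebpa* itself was below the limit on both OB-labelled KO arrays. From the measured values the mean difference of the changes was -1.33 against *Irf8*, from -0.33 in hippocampus to -1.88 in striatum, -1.50 against *Cebpa* and -2.17 against *Stat5a*. Against *Cebpb* it was -1.36 to -2.69 by region and against *Tfec* -1.38 on average, but *Cebpb* reached an intensity of 20 on 4 of 24 arrays and *Tfec* on 0 of 24. These differences are a description with no test, because *Spi1* was singled out by the same arrays and because the 4 regions come from 2 rats per genotype.

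In HET rats, with 1 mutant allele, no difference from WT was called. That includes *Csf1r*, the targeted gene, at -0.48 in the brain mean (unadjusted p = 0.0107 from limma). The mean also holds the OB-labelled arrays, where *Csf1r* does not separate HET from WT. A missing call therefore does not show that a member is unchanged. In the brain mean *Spi1* differed by -0.09 (SE 0.174), *Irf8* by -0.14, *Cebpa* by -0.01, *Cebpb* by -0.04 and *Stat5a* by 0.09 (adjusted p of 1.00 for each from limma). No member was called and none had an unadjusted p under 0.05. Over all genes 0 of 10663 (0%) were called by limma and 0 by the methods' t-test, with 351 at an unadjusted p under 0.05 in limma. By region the widest differences of a tested member were -0.46 for *Cebpa* in hippocampus and 0.40 for the same gene on the pituitary-labelled arrays.

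**Figure D3:**
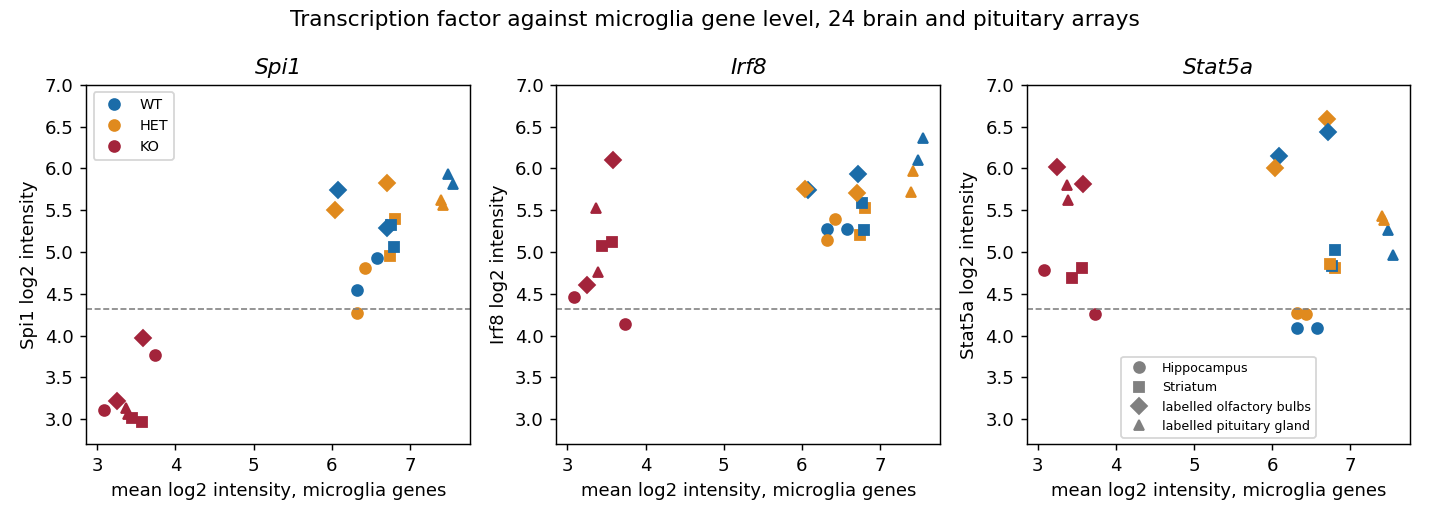
Log2 intensity of *Spi1*, *Irf8* and *Stat5a* (y axes) against the mean log2 intensity of the 10 measured microglia genes (x axis) on the 24 brain and pituitary arrays, coloured by genotype and shaped by label, dashed line an intensity of 20. The KO arrays form a separate group at the left, low for *Spi1*, partly low for *Irf8* and not for *Stat5a*.

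Over the 24 arrays the genes whose pattern was most like that of *Spi1* were *Adgre1*, the rat F4/80 receptor (Pearson r = 0.964), *C1qc* (0.961) and *Tyrobp*, an adaptor of activating receptors (0.956). For *Csf1r* r was 0.910 and for *Irf8* 0.708. These points share the KO arrays and the tissues, and the correlations are a description. Since KO arrays form a cluster of their own, the relation to the mean of the 10 microglia genes is given over the 16 WT and HET arrays, where r was 0.506 for *Spi1*, 0.591 for *Irf8*, 0.441 for *Tfec*, 0.256 for *Cebpa*, 0.025 for *Stat5a* and -0.30 for *Cebpb*.

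The other members had other neighbours. *Irf8* was most like *Evi2b* (0.849), *Lyz2*, the macrophage lysozyme (0.839), and *Slc15a3*, a lysosomal peptide transporter (0.809). *Cebpa* was most like *RT1-DMa*, which helps load MHC class II (0.868), *Irf5* (0.832) and *Rimkla* (0.780). *Stat5a* was most like *Sys1* (0.952), *Fbxo32* (0.951) and *Rcan3* (0.940), and *Cebpb* like *Tnks1bp1* (0.802), *Nexmif* (0.792) and *Macf1l1* (0.788). *Tfec*, at background, was most like *C1qc* (0.752), *C2h1orf162* (0.746) and *Hpgds* (0.726).

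In the spleen the picture turned on single arrays, and no member was called between KO and WT. KO 2, 1 of the 2 KO arrays in each KO difference, carries thymus genes. *Tfec* had the widest difference. WT spleens had log2 intensities of 8.02 and 7.68, HET 1 and HET 2 had 7.98 and 5.70, and KO 1 and KO 2 had 5.86 and 4.65. KO 1, with a thymus gene sum like that of the WT spleens, stood 1.99 below the WT mean. The ratio of KO 1 to the WT mean intensity was 0.250, and that of KO 2 was 0.108. HET 2, the other array with thymus genes, had 0.224. The log2 difference was -2.60 (SE 0.428, n = 2 arrays, unadjusted p = 0.00128, adjusted p = 0.445 from limma). Without KO 2 it was -1.99 (adjusted p = 0.112), and without KO 1 -3.20 (adjusted p = 0.000907), each with a single KO spleen.

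*Spi1* lay nearer to WT on the KO spleen without thymus genes. WT spleens had 8.09 and 8.08, HET 1 had 7.95 and KO 1 had 7.44, whereas the thymus-carrying HET 2 and KO 2 had 5.67 and 5.41. KO 1 had 0.640 of the WT mean intensity and KO 2 had 0.156. The difference was -1.66 (SE 0.645, adjusted p = 0.745), -0.64 without KO 2 (adjusted p = 0.579) and -2.68 without KO 1 (adjusted p = 0.00107). *Irf8* was low on the same arrays. WT spleens had 9.97 and 9.82, HET 1 had 9.76 and KO 1 had 10.05, whereas HET 2 and KO 2 had 8.06 and 7.82. KO 1 lay above both WT arrays, and the difference of -0.96 (SE 0.746, adjusted p = 0.784) became 0.15 without KO 2.

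B cell genes moved with these values. Over 3 measured genes of a B cell list the summed intensity was 2363 to 2839 on WT 1, WT 2, HET 1 and KO 1, 265 on HET 2 and 106 on KO 2. B cells also express *Spi1* and *Irf8*, and the part of cell composition in the differences was not tested. *Csf1r* itself had 10.4 and 10.2 in WT, 9.75 and 7.05 in HET, and 4.81 and 3.28 in KO. Over the 8 spleen and BMDM arrays *Tfec* correlated with *Csf1r* at r = 0.956 and *Spi1* did at 0.792. The closest genes to *Spi1* there were *Apobec1* (0.997), *Ifit3* (0.994) and *Irak2* (0.994), over arrays of which 2 carry thymus and 2 are cultured cells.

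*Cebpa* was at 6.02 and 6.31 in WT and at 5.38 and 5.59 in KO (-0.68, SE 0.285, adjusted p = 0.745), and the HET arrays, at 6.32 and 6.03, stayed with WT, thymus genes or not. Without KO 2 the difference was -0.78 (adjusted p = 0.661), next to the -0.64 of *Spi1*. *Cebpb* had 4.38 and 4.48 in WT, 4.55 on KO 1 and 3.36 on KO 2 (-0.47, adjusted p = 0.797). *Stat5a* had 6.84 and 6.99 in WT and 6.92 and 7.43 in KO (0.27, adjusted p = 0.827). Of the 6 members tested, 0 were called by limma and 0 by the methods' t-test, with 2, *Spi1* and *Tfec*, at an unadjusted p under 0.05 in limma. Over all genes 0.0106% were called. *Csf1r* itself, the targeted gene, was not called in this fit (-6.23, adjusted p = 0.0786 from limma). A missing call in spleen therefore does not show that a gene is unchanged. With KO 2 as the only KO spleen, 4 members (*Spi1*, *Irf8*, *Cebpb* and *Tfec*) were called lower, as were 13.2% of all genes, and with KO 1 as the only one 0 members and 0.0639% of all genes were.

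**Figure D4:**
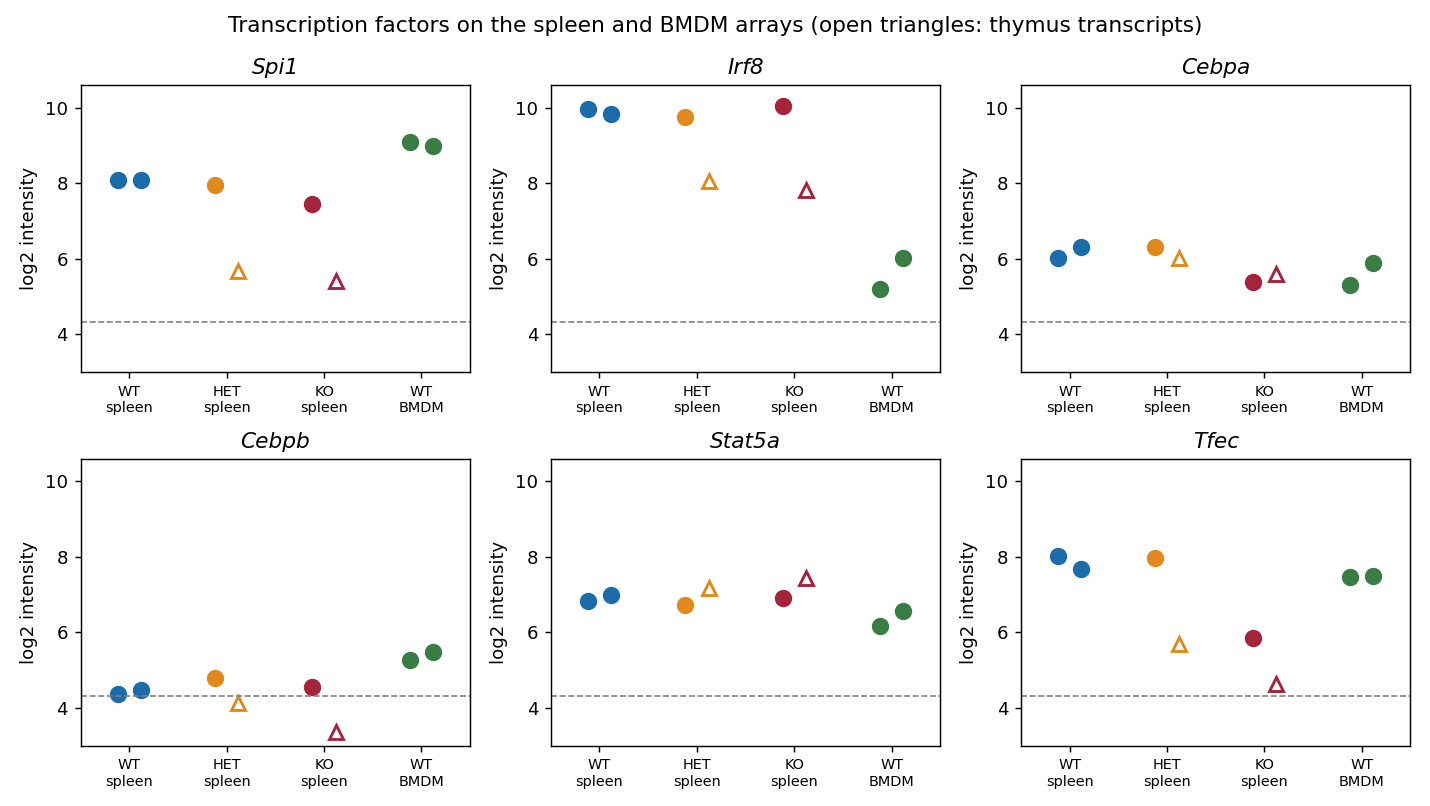
Log2 intensity of the 6 transcription factors on the 6 spleen and 2 BMDM arrays (points are single arrays, open triangles HET 2 and KO 2, which carry thymus genes, dashed line an intensity of 20). *Irf8* on BMDM, at 5.19 and 6.02, lies below every spleen, while *Tfec* on KO 1, at 5.86, lies below WT and HET 1 although that array has no thymus genes.

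BMDM, macrophages grown in culture, differed from WT spleen most in *Irf8*. It was at 5.19 and 6.02 in BMDM against 9.97 and 9.82 in WT spleen, and the groups did not overlap. The difference was -4.30 (SE 0.746, adjusted p = 0.00922 from limma), where 24.7% of genes were called lower and 42.8% in either direction. The call was lost without either WT spleen or without BMDM 2 (-3.88), and was kept in the other 3 of 6 fits with 1 array left out. The SE of the fit also holds the gap between the KO spleens, at 10.05 and 7.82. The methods' t-test called 2 members, *Irf8* and *Spi1*, and 23.7% of all genes. The B cell genes summed to 35.6 and 61.0 in BMDM.

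*Spi1* stood at 9.09 and 8.99 in BMDM, above both WT spleens, with a difference of 0.95 (SE 0.645, adjusted p = 0.279). The SE of that fit holds the gap between the KO spleens, and without KO 1 or KO 2 the same difference was called (adjusted p = 0.00505), in a fit that called 24.9% of all genes higher. *Cebpb* behaved alike, at 5.26 and 5.47 against 4.38 and 4.48 (0.94, adjusted p = 0.121, and 0.00655 without KO 1 or KO 2). *Tfec*, at 7.46 and 7.50, lay just below the WT spleens (-0.37, SE 0.428, adjusted p = 0.515). *Cebpa* (-0.57, adjusted p = 0.160) and *Stat5a* (-0.54, adjusted p = 0.169) were lower on average and not called.

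Genes known in mouse or human as targets of PU.1 were read beside *Spi1*. Of 22 on the list 15 were tested in the brain mean, and 11 fell and 0 rose, where 1.08% of all genes were called lower. The median log2 difference was -1.50 against -0.01 over all genes. On each KO array 9 to 15 of the 15 lay below an intensity of 20, so the measured sizes and their order are taken in part against levels below the limit. With such KO values set to 20 the median was -0.72. The measured differences were, for *Csf1r*, the targeted gene, -5.20, followed by *Adgre1* (-3.20), *Tyrobp* (-3.15), *Lyz2* (-2.34), *Aif1*, a calcium-binding protein of microglia (-2.17), *Fcgr1a*, the high-affinity Fc receptor (-1.97), and *Itgam*, the integrin CD11b (-1.89). *Csf3r*, the G-CSF receptor (-1.50), *Itgb2*, the partner chain of CD11b (-1.40), *Cd68*, a lysosomal glycoprotein (-1.37), and *Ptprc*, which encodes CD45 (-1.01, adjusted p = 0.0499), completed them. With KO values of at least 20, *Csf1r* differed by -4.16, *Tyrobp* by -2.83, *Lyz2*, which was below the limit on 1 of 8 KO arrays, by -2.30 and *Adgre1* by -1.66. The other 7 then lay between -0.97 for *Itgb2* and -0.0036 for *Ptprc*, which 4 of 8 WT arrays also had below the limit. *Ncf1*, *Msr1*, *Tlr4* and *Cd14* did not pass, with differences of -0.78, -0.76, -0.24 and -0.15. *Aif1* is on the microglia list as well, and most of these genes are expressed mainly in myeloid cells.

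In spleen the same 15 targets were all lower in KO on average (median -1.75, against 0.02 over all genes), and 0 were called by limma. The mean log2 intensity of the list was 8.58 and 8.41 in WT and 8.55 on HET 1, then 7.32 on KO 1, 6.55 on HET 2 and 5.77 on KO 2, so both thymus-carrying arrays lay lowest. Without KO 2 the median was -1.15, 12 of 15 lay below 0 and 1, *Csf1r*, was called. Without KO 1 the median was -2.39 and 12 were called, against the 13.2% of all genes given above, and 5 of the 15 lay below an intensity of 20 on KO 2. *Lyz2* (-3.26, adjusted p = 0.684) and *Msr1*, a scavenger receptor (-3.02, adjusted p = 0.706), were among the widest, next to *Csf1r* (-6.23, adjusted p = 0.0786), and stood at -1.91 and -1.58 without KO 2. Between BMDM and WT spleen 6 of the 15 were higher and 0 lower, with a median of 1.22, where 18.1% of all genes were called higher and the median of all genes was -0.20. *Cd14*, a co-receptor for lipopolysaccharide, differed by 4.85 and *Itgam* by 3.77.

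**Figure D5:**
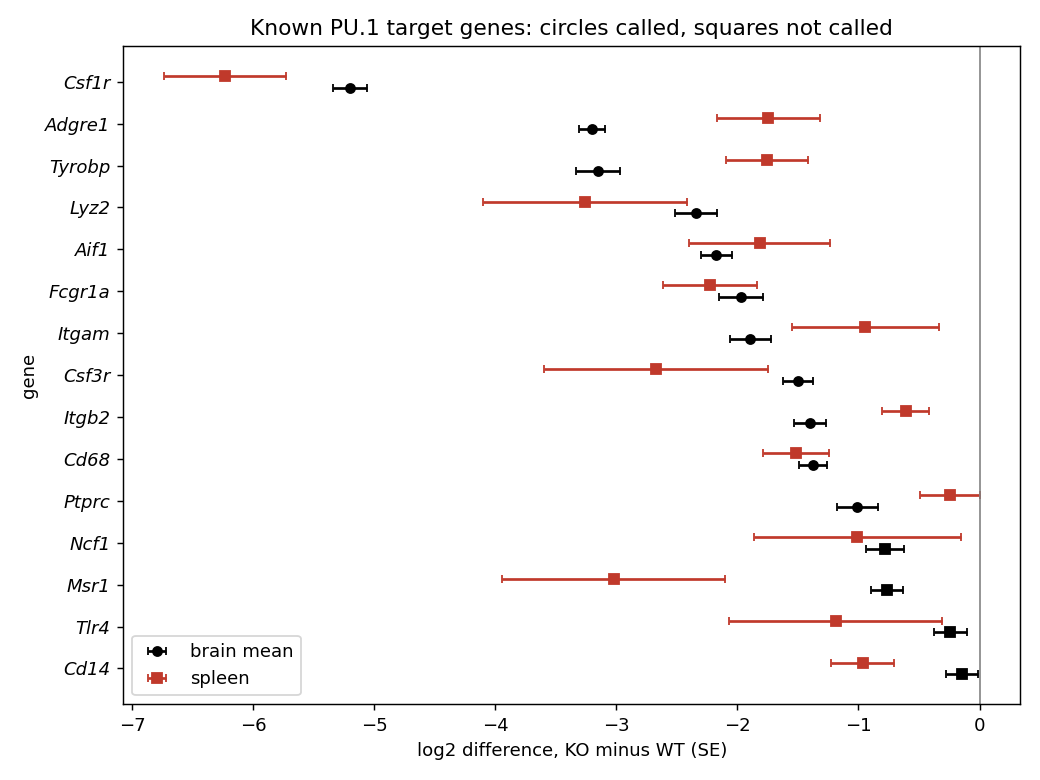
Log2 difference of KO minus WT for the 15 tested genes known as PU.1 targets, in the brain mean (black) and spleen (red), with bars for the SE of the limma fit, circles called and squares not called. In the brain mean 11 genes are called lower, from *Csf1r* at -5.20 to *Ptprc* at -1.01, as measured and with 9 to 15 of the 15 below an intensity of 20 on each KO array, and none is called in spleen, where the bars are wider.

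The relatives of the 6 factors are to be read against the 1.08% of all genes called lower in the KO brain mean. Of 6 tested ETS genes 0 were called in the KO brain mean (median -0.10), the widest being *Fli1* (-0.49, SE 0.092, adjusted p = 0.0722). Of 6 IRF genes 1 fell, *Irf5*, a factor of inflammatory macrophages (-0.73, SE 0.093, adjusted p = 0.0114), while *Irf9* (0.46) and *Irf7* (0.14) did not pass. Of 3 C/EBP genes, 5 STAT genes and 1 MITF-family gene, 0 were called. Among 20 other macrophage or microglia transcription factors 1 fell, *Egr2* (-0.68, adjusted p = 0.0437), and the list median was -0.14. *Nr4a1* (-0.60), *Maf* (-0.57) and *Sall1*, which marks microglia within the brain (-0.33, adjusted p = 0.341), did not pass.

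In spleen none of these families had a call between KO and WT. The widest differences were those of *Nr1h3*, which encodes the liver X receptor LXRα (-2.45), *Mef2c* (-2.13) and *Irf7* (-1.91). Without the thymus-carrying KO 2 they were -1.55, 0.20 and -1.20. The summed intensity of the IRF genes was 2352 on KO 1, against 2208 and 2379 in WT, and 1097 and 1107 on KO 2 and HET 2. Between BMDM and WT spleen, where 42.8% of all genes were called, 4 of 6 ETS genes were lower and 2 higher, with *Elf1* (-1.99) and *Ets2* (1.81) at the ends. Of 5 STAT genes 3 were lower, *Stat4*, a factor of T and NK cells, by the most (-5.37). Of 4 C/EBP genes 3 were higher, led by *Ddit3*, a stress-response factor (2.64), and of the 19 other macrophage factors 4 were higher and 3 lower, with *Egr2* (4.01) and *Egr1* (-3.59) at the ends, a share below that of all genes.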

How the data were processed

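Total RNA of each tissue and of BMDM was run on the Affymetrix Rat Gene 2.1 ST platform. Per the study's methods the authors normalized the arrays with RMA in R/Bioconductor (version not given in the sources used here), and the deposited values are intensities on a linear scale for 36685 probe sets. RMA returns log2 values, so the deposited intensities had been put back on the linear scale, and here log2 was taken again for all tests. The 24 brain and pituitary arrays shared 8 to 132 exact values per pair and the 8 spleen and BMDM arrays 61 to 161, but pairs across these sets only 0 or 1, so both sets were treated as normalized separately and no test crosses them. The median intensity per array was 15.1 to 21.7, and 45.3 to 51.5% of probe sets reached 20.

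By the platform annotation 14824 probe sets carry 1 symbol (14670 of them found in RefSeq on GRCr8), 829 carry several and 21032 are unnamed. Each gene was represented by its brightest probe set on average, and genes with 1 array or more at an intensity of 20 were tested with limma 3.58.1 in R 4.3.3 at a Benjamini-Hochberg adjusted p of 0.05. The brain mean fit held 6 values (the mean of 4 regions per genotype and number), the region fit 12 groups, and the spleen fit the WT, KO and BMDM arrays. The fits were run on simulated data with known changes and independent noise on each array. Shared rats and arrays that carry another tissue were not simulated, so these runs say nothing about their effect. Named were the 6 members, *Csf1r*, the 3 genes most correlated with each member, and of each list the genes that passed or else the 3 widest, with a few others chosen after their values were seen. The members and lists were chosen with earlier results of these data known. Some listed genes have no single-symbol probe set and are not analysed here. A permutation test of *Spi1* against the other members was run and its p-values are not given, since arrays share rats. Correlations and motif searches used Python 3.11.15 and numpy 2.4.6, and figures matplotlib 3.10.9. Alternatives were other filters, probe-set averaging, a variance trend, the methods' t-test, quantile normalization, blocking on replicate number, WT and HET together as reference, arrays left out and other sets of regions. A crossed block was added after seeing the data.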

Additional observations from a re-analysis of the deposited data

How the results depend on the processing

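The fall of *Spi1* in the brain mean kept its direction in every alternative run (-1.75 to -2.24 on the log2 scale) and its call in all but the methods' t-test (adjusted p = 0.624), whose 2 degrees of freedom per gene share nothing across genes. That test called 0 members in the brain mean and in each of the 4 regions, and 2 between BMDM and WT spleen (*Spi1* and *Irf8*), where it called 23.7% of all genes, with 2, 1, 1, 2, 1 and 3 at an unadjusted p under 0.05 in the brain mean, hippocampus, striatum, the OB-labelled arrays, the pituitary-labelled arrays and BMDM. A variance trend and leaving out the OB-labelled arrays each called 2 members in the brain mean. With no intensity filter 0 were called in hippocampus and 2 on the pituitary-labelled arrays, where more genes were tested. Without the 8 arrays set aside for other tissue 0 were called in hippocampus and 0 in striatum. Quantile normalization called 2 between BMDM and WT spleen. Apart from the filter, the t-test and the arrays left out, the cause was not tested.

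Leaving out 1 array or replicate number gave 1 to 2 members called in the brain mean, 0 to 1 in hippocampus, 1 in striatum, 0 to 2 on the OB-labelled arrays, 1 to 2 on the pituitary-labelled arrays, 0 to 4 in spleen and 0 to 3 between BMDM and WT spleen. The sign of *Cebpb* turned, at -0.34 to 0.24 in the brain mean, -0.56 to 0.66 in hippocampus, -0.32 to 0.30 in striatum, -0.56 to 0.25 and -0.44 to 0.27 on the OB-labelled and pituitary-labelled arrays and -1.07 to 0.12 in spleen. It was 0.021 in the mean of hippocampus and striatum alone and 0.19 in striatum without the 8 arrays. *Irf8* ranged from -1.23 to 0.26 on the OB-labelled arrays and from -2.08 to 0.15 in spleen. A fit that keeps 1 array of a group assumes that it varies like the others.

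On measured values, which for *Spi1* in KO lie below the limit, the KO change of *Spi1* minus that of *Irf8* was -1.10, of *Cebpa* -1.21, of *Cebpb* -1.77, of *Stat5a* -1.88 and of *Tfec* -1.74 with hippocampus and striatum alone, and without the 8 arrays all 5 stayed below 0.

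Same-numbered WT and KO samples deviated together in hippocampus (r = 0.45), where WT 2 and KO 2 both carry choroid plexus genes, and not in the brain mean (0.09), spleen (0.08) or the other regions (-0.27 to 0.06), so the numbers were not treated as pairs. With the replicate number as a block *Spi1* in the brain mean was -2.05 (adjusted p = 0.00121), and the same count of members, 1, was called there, in each region and in BMDM, and 0 in spleen. In striatum, where r was -0.27, a block with the KO numbers crossed also called 1 member.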
